A study of Caenorhabditis elegans with 2 samples.

Results

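The peaks described here are those on the outer parts, or arms, of the C. elegans autosomes II, III and V. They come from chromatin immunoprecipitation and sequencing (ChIP-seq) of eGFP-tagged ZTF-11, where eGFP is an enhanced green fluorescent protein. A peak of the replicate 1 list on the ce11 genome build was a member when, with the chromosome cut into 3 equal lengths, its summit lay in either outer one. Of 30000 peaks in that list, 9317 were members, 5811 lay in the middle length of the same chromosomes, called the centres here, and 14872 lay on I, IV and X. The authors' name for the replicate lists says that they hold background as well as peaks, and whether 30000 is a cap on the length of the list is not known here. Peaks per Mb and shares of members therefore describe the list and are not counts of bound sites. Both biological replicates were whole worms of mixed sex at the L3 larval stage, from strain OP236, which carries the unc-119(ed3) mutation on III and the transgene wgIs236. No untagged strain or other stage was compared, the labels name ztf-11 itself under antibody, and the line rests on 1 transgene. The samples are whole larvae, so peaks from different tissues are mixed. The other lists were much shorter. Replicate 2 had 2036 peaks with 547 on these arms, the list of both replicates pooled had 631 with 167 on the arms, and the authors' thresholded list had 96 with 15 on the arms. Depth is unknown, since peak lists hold no read counts.

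ZTF-11 is the worm's zinc finger protein of the Myt1 family, whose vertebrate members are known to repress non-neuronal genes as neurons form. Its family binds a short core sequence, AAGTTT. In C. elegans, autosome centres hold most conserved and widely expressed genes, while arms recombine more, hold more repeats and carry the large, fast-changing families of chemoreceptors, F-box proteins and C-type lectins.

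The sequences at summits of 4 promoter peaks that overlapped a replicate 2 peak are shown first, because 3 of them share a 9-letter run. The peak at Y71H2AM.20 ranked only 15842 by score in replicate 1. Overlaps at such ranks are not read below as reproduced peaks. Each sequence is the WBcel235 forward strand, the same assembly as ce11, from 60 bp before to 60 bp after the summit. Capitals mark GAGTGTGTG and AAGTTT or its reverse complement AAACTT. The windows are chrIII:10759175-10759295, chrIII:3867529-3867649, chrIII:2786005-2786125 and chrII:10563538-10563658.
tasp-1 promoter: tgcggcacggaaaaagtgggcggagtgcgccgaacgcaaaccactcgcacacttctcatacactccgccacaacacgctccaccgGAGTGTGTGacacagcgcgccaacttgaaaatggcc
rpl-3 promoter: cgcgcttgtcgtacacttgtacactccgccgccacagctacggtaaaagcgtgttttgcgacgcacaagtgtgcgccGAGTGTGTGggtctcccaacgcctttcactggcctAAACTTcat
Y71H2AM.20 promoter: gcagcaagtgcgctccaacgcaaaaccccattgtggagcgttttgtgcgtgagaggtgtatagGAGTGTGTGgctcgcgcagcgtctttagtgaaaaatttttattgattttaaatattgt
cdc-48.1 promoter: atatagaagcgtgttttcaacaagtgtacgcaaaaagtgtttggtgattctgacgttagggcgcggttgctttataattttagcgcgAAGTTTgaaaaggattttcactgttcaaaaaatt

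Further sequences show the trio of peaks at a microRNA cluster on V and the strongest member, which was missing from replicate 2. Capitals mark AAACTT in the first. The windows are chrV:14364997-14365117, chrV:14366674-14366794, chrV:14368345-14368465 and chrIII:13780538-13780658.
mir-48 peak: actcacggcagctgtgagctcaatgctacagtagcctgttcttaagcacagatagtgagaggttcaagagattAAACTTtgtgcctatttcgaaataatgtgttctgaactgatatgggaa
mir-241 peak: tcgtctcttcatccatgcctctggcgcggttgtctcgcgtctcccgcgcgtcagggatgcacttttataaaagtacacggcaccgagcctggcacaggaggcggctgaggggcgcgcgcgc
neighbouring intergenic peak: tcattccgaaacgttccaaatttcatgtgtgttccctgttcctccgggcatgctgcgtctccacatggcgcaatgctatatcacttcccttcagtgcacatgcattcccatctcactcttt
pot-3 intron peak: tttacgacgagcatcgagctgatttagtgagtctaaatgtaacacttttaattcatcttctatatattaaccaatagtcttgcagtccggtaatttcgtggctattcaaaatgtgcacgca

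Arms held fewer peaks per length than centres, in both replicates. Replicate 1 had 279.6 peaks per Mb on 33.3 Mb of arms and 349 per Mb on 16.7 Mb of centres, a ratio of 0.802. Of its peaks on the 3 chromosomes, 61.6% lay on the arms (95% exact interval 60.8 to 62.4), against 66.7% of the sequence (exact binomial test, two-sided, adjusted p = 1.58e-38). Replicate 2, which played no role in choosing the members, had 16.4 against 25.5 peaks per Mb, a ratio of 0.644. Its share on the arms was 56.3% (53.1 to 59.4, exact binomial test, adjusted p = 5.15e-11). The pooled list had 5.01 against 7.62 peaks per Mb. All p-values were adjusted together over 9 tests. Their units are positions, so they carry the spread between positions and not that between animals, and the intervals cover counting error only.

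The shortfall was not even along the arms. Bins of 5% of the length between 10% and 15% of each chromosome had 209 replicate 1 peaks per Mb on II, 192 on III and 202 on V. The outermost left bins, from 0 to 5%, had 283, 263 and 283 per Mb. On the right, the outermost bins had 247 per Mb on II, 283 on III and 257 on V, against 299.7, 221 and 192 from 85 to 90%, so the right arm of II went the other way. In replicate 2 the outermost left bins had 27.5, 26.1 and 21 peaks per Mb, and the bins from 10% to 15% had 7.85, 21.8 and 11.5. Its outermost right bins had 13.1, 21.8 and 10.5, against 22.3, 8.71 and 8.6 from 85 to 90%. The highest replicate 1 bin with its midpoint on an arm lay next to the III centre, from 65 to 70% of the length, with 399 per Mb. At the 6 boundaries themselves there was little step: 1027 replicate 1 peaks lay within 500 kb on the arm side and 1029 within 500 kb on the centre side. Of these, 2.53% and 3.01% were found in replicate 2. In 328 bins of 100 kb the members numbered from 0 to 49 with a median of 28. The 1 bin with 0 members lay on V from 2400001 to 2500000 and was also empty in replicate 2 and the pooled list.

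**Figure D1:**
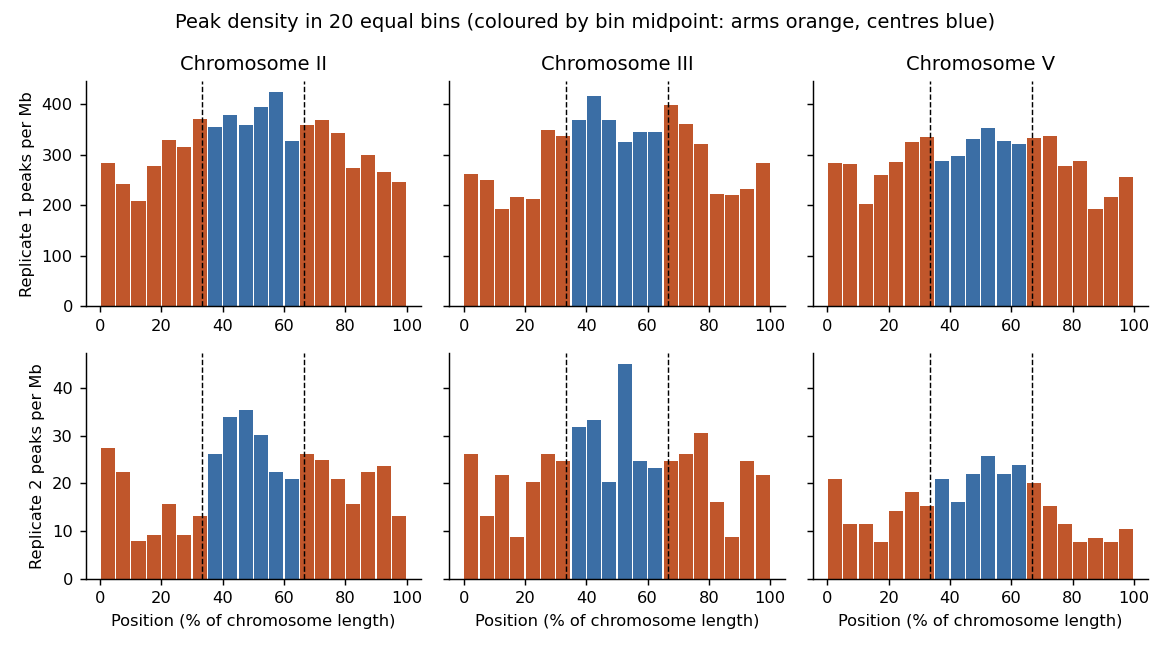
Peaks per Mb (y axes) of replicate 1 (upper panels) and replicate 2 (lower panels) in 20 equal bins along chromosomes II, III and V (x axis, percent of the length), coloured by bin midpoint, with dashed lines at the arm boundaries. Arms averaged 279.6 and centres 349 replicate 1 peaks per Mb, and 16.4 and 25.5 replicate 2 peaks per Mb.

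Few members were found again in replicate 2. A member counted as found when it overlapped a replicate 2 peak by at least 1 bp. This held for 167 of 9317 members, 1.79% (1.53 to 2.08), and for 169 of 5811 centre peaks, 2.91% (2.49 to 3.37). Over the whole replicate 1 list the share was 2.39%. The odds on the arms were 0.609 times those on the centres (95% interval 0.488 to 0.761, Fisher's exact test, two-sided, adjusted p = 1.99e-05). Chromosome III alone did not pass, with an odds ratio of 0.763 (exact p = 0.167). By arm, the share ran from 1.32% on the left arm of V to 2.91% on the left arm of III, with 1.44% on the right arm of V, 1.65% and 2.07% on the left and right arms of II and 1.83% on the right arm of III. The centres had 3.29% on II, 3.04% on III and 2.48% on V.

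Replicate 2 also had fewer peaks to meet on the arms. A peak of 320 bp, the width of every replicate 1 peak, would meet a replicate 2 peak at 1.11% of arm positions and 1.72% of centre positions. The observed share was 1.61 times that value on the arms and 1.69 times on the centres. The sparser replicate 2 peaks therefore moved with the lower recurrence, and the difference of these ratios was not tested. Seen from replicate 2, 160 of its 547 arm peaks overlapped a replicate 1 peak, 29.3% (25.5 to 33.3), against 167 of 425 on the centres, 39.3% (34.6 to 44.1). Replicate 1 peaks covered 8.83% of the arm bases and 11% of the centre bases. Base coverage is lower than the share of positions where a replicate 2 peak would meet one from 1 bp. That share was not computed, so these shares of overlap have no like measure beside them.

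In the pooled list, which contains the reads of replicate 1 and is no independent sample, 172 members were found, 1.85% (1.58 to 2.14), against 130 centre peaks, 2.24% (1.87 to 2.65). The share of the whole replicate 1 list was 2.11%. The odds ratio of 0.822 (0.649 to 1.04) did not pass (Fisher's exact test, adjusted p = 0.122). Pooled peaks were also sparser on the arms. A peak of 320 bp would meet one at 0.319% of arm positions and 0.487% of centre positions. The observed share was 5.79 times that value on the arms and 4.59 times on the centres, so the direction turned. The difference of these ratios was not tested. Seen from the pooled list, 92.8% of its 167 arm peaks overlapped a replicate 1 peak, close to 95.3% on the centres and 95.2% of its nuclear peaks. The thresholded list was met by 16 members, 0.172%, and by 16 centre peaks, 0.275%, against 0.26% of the whole list.

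By strength, arm and centre peaks did not differ past the threshold. The score of a peak comes from the authors' peak caller and its scale is not stated in the labels, so ranks within the list were compared. Members had scores from 6.32 to 62.5 with a median of 8.77, and centre peaks a median of 8.9. Among the strongest 1000 peaks of the list, which are 3.33% of it, there were 267 members (2.87% of them) and 195 centre peaks (3.36%). The odds ratio was 0.85 (0.702 to 1.03, Fisher's exact test, adjusted p = 0.122). By the authors' q-values, 403 members (4.33%) and 287 centre peaks (4.94%) had q of at most 0.05, against 4.91% of the whole list. Among replicate 2 arm peaks, 4 of 547 did.

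Recurrence rose with strength on the arms. Of the 25 members among the strongest 100 peaks, 6 were found in replicate 2, 24% (9.36 to 45.1). The share was 17.3% at ranks 101 to 300, 6.32% at ranks 301 to 1000, 2.66% at ranks 1001 to 3000, 1.58% at ranks 3001 to 10000 and 1.43% beyond. Even so, 90 of the 167 recurring members ranked past 10000, where most members lie. The share past rank 10000 was 1.29 times the 1.11% of arm positions where any such peak would meet replicate 2. On the centres that ratio was 1.33. Overlaps at these ranks are therefore not read as reproduced peaks. The recurring members' scores hardly followed those of the replicate 2 peaks they met, with a Spearman's rho of 0.0805 over 167 pairs that share 2 libraries. In a logistic model over all 30000 peaks, each doubling of the score multiplied the odds of recurrence by 3.16 (2.71 to 3.68). At equal score the odds on the arms were 0.621 times those on the centres (0.5 to 0.772, likelihood-ratio chi-square test, adjusted p = 3.34e-05). The model had no term for the sparser replicate 2 peaks on the arms. The shares of positions that meet such a peak, 1.11% on arms and 1.72% on centres, had a ratio of 0.645. Recurrence at equal replicate 2 density was not tested.

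The contrast of arms and centres was then split by strength. Outside the strongest 1000, 140 of 9050 members (1.55%) and 152 of 5616 centre peaks (2.71%) were found in replicate 2, an odds ratio of 0.565 (0.445 to 0.717, Fisher's exact p = 1.82e-06). Within the strongest 1000, 27 of 267 members (10.1%) and 17 of 195 centre peaks (8.72%) were found, an odds ratio of 1.18 (0.598 to 2.38, Fisher's exact p = 0.635). The interaction of arms with strength had an odds ratio of 2.03 (1.03 to 4.01, chi-square p = 0.0385, unadjusted). It was tested after the shares by rank had been seen. Neither the split nor the interaction took the sparser replicate 2 peaks on the arms into account. Within the strongest 1000, the centre shares were 35.3% at ranks 1 to 100, 17.5% at ranks 101 to 300 and 2.9% at ranks 301 to 1000. The arms were therefore higher at ranks 301 to 1000 alone, with 12 of 190 members against 4 of 138 centre peaks, and lower or close at the stronger ranks.

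**Figure D2:**
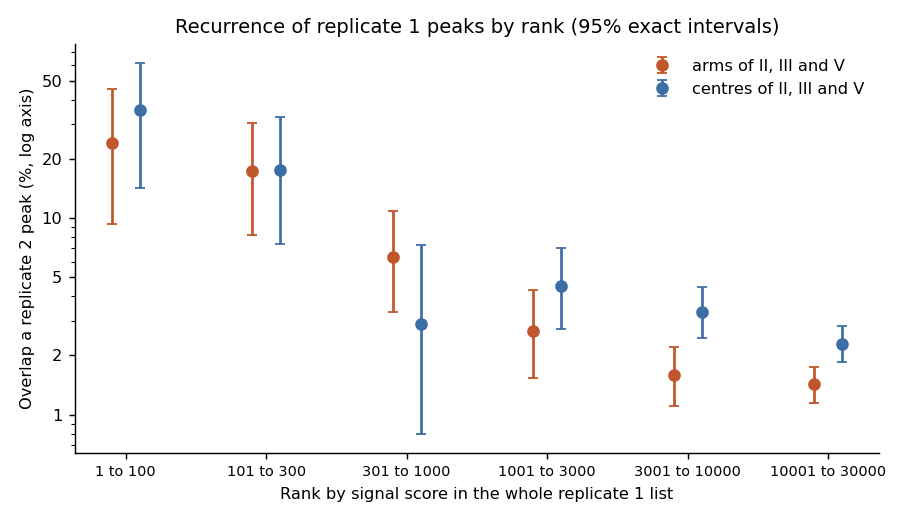
Share of replicate 1 peaks that overlap a replicate 2 peak (y axis, percent, log scale) by rank of signal score in the whole replicate 1 list (x axis), for arms (orange) and centres (blue) of II, III and V, with 95% exact intervals. The arm share falls from 24% at the strongest ranks to 1.43% past rank 10000, and lies below the centre share in every class except ranks 301 to 1000, where it is 6.32% against 2.9%.

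By gene class, members were divided in order into promoters (at most 500 bp between the summit and a protein-coding 5′ end), exons, introns and intergenic sequence. Promoters held 1953 members (21%) and 1256 centre peaks (21.6%), against 20.2% of the whole list. The odds ratio of 0.962 did not pass (0.887 to 1.04, Fisher's exact test, adjusted p = 0.347). It became 0.863 with a distance of 1000 bp, where the unadjusted exact p was 1.54e-05. Promoters made up 19.7% of the arm sequence and 23% of the centre sequence. Exons held 36.4% of the members but 21.3% of the arm sequence, introns 21.5% against 30.5%, and intergenic sequence 21.2% against 28.5%. Exon peaks were also the most GC-rich class, with a median of 43.3% G and C within 100 bp of the summit against 40.8% in each other class. The part of base composition in the exon share was not tested.

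The classes of the peaks shared with replicate 2 are given as counts, without a test. Of the 167 recurring members, 53 lay at promoters (31.7%), 42 in exons (25.1%), 30 in introns (18%) and 42 in intergenic sequence (25.1%). Promoter members were found in replicate 2 in 2.71% of cases (2.04 to 3.53), intergenic members in 2.13% (1.54 to 2.87), intron members in 1.5% (1.01 to 2.14) and exon members in 1.24% (0.894 to 1.67). Of all 547 replicate 2 arm peaks, 29.8% lay at promoters, 15.7% in exons, 25.8% in introns and 28.7% in intergenic sequence. Their median GC content was 34.8%, against 41.8% for the members and 36% for the arm sequence, so the lists differed in base composition as well as in gene class.

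**Figure D3:**
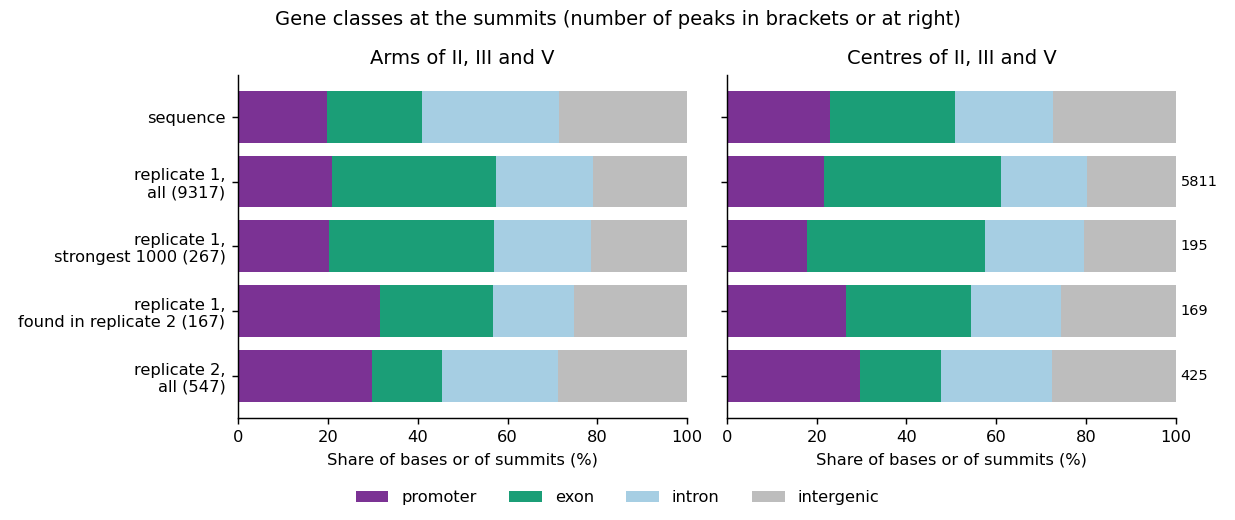
Share (x axis, percent) of bases in the top bar, and of peak summits in the bars under it, that fall at promoters, in exons, in introns and in intergenic sequence, for arms (left) and centres (right). On the arms, promoters hold 21% of replicate 1 peaks, 31.7% of those found in replicate 2 and 29.8% of replicate 2 peaks, while exons hold 36.4%, 25.1% and 15.7%.

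The chemoreceptor, F-box and C-type lectin families had replicate 1 peaks near 40.4% to 60.8% of their arm genes. Few of these genes were near a peak found in replicate 2. Of 10494 genes with a 5′ end on the arms, 4915 (46.8%) had a summit within 1000 bp, against 41.1% of all nuclear genes. Only 159 arm genes (1.52%) were near a peak found in replicate 2, against 193 of 6466 on the centres (2.98%) and 1.87% of all nuclear genes. Genes on arms and centres are counted here without a test. Chemoreceptor genes, which encode G protein-coupled receptors for odours and tastes, had a summit nearby in 335 of 829 cases (40.4%), with 5 near a recurring peak: srh-10, srh-146, srh-203, srw-107 and srw-17. F-box genes, which encode substrate adaptors for protein degradation, had 112 of 259 (43.2%), with fbxb-85 the 1 gene near a recurring peak. C-type lectin genes, known for roles in immunity, had 73 of 120 (60.8%), with clec-260 alone near a recurring one. The shares near a recurring peak were 0.603%, 0.386% and 0.833% for the 3 families. All nuclear genes of these families, arm genes included, had 38.3%, 43.2% and 57.9% near a summit. Near a recurring peak were 0.763%, 0.311% and 1.25% of them, so these shares are not particular to the arms.

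Counts for other families follow without a test, beside 46.8% of all arm genes near a summit and 1.52% near a recurring peak. Nuclear hormone receptor genes, encoding ligand-regulated transcription factors, had a summit nearby in 54 of 144 cases (37.5%). Near a recurring peak were nhr-47, nhr-133 and nhr-226 (2.08%, against 8.7% on the centres and 3.35% of all nuclear ones). Of 60 MATH and BATH genes, whose products act in protein degradation, 24 had a summit nearby. Of them 1, bath-19, had a recurring one (1.67%, against 1.37% of all nuclear ones). Cytochrome P450 genes (14 of 41), glutathione S-transferase genes (19 of 32), collagen genes (22 of 32), UDP-glucuronosyltransferase genes (9 of 21) and neuropeptide genes (22 of 39) had none near a recurring peak. The families are small, so the lack of one is not read as a result. Of all nuclear genes in these families, 0 of 74, 0 of 44, 2 of 156, 0 of 67 and 5 of 140 were near a recurring peak. Among 7 Skp1-related genes 6 had a summit nearby and skr-4 a recurring one, and among 19 ceh homeobox genes 8 did and ceh-33 was near a recurring one. Histone genes stood at the low end, with 2 of 21 near any member (9.52%) and 0 near a recurring one. They were low elsewhere too, with 17.4% near any replicate 1 peak on the centres and 27.8% of all nuclear ones. Near a recurring peak were 13% on the centres and 6.94% of all. Pseudogenes had 444 of 1128 near a member (39.4%) and 2 near a recurring one (0.177%), against 36.5% and 0.376% of all nuclear ones.

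Short noncoding RNA genes are given in the same way, as counts without a test. Of 93 snoRNA genes on the arms, whose RNAs guide modification of other RNAs, 62 (66.7%) had a summit within 1000 bp and 8 (8.6%) a recurring one, against 10.3% near a recurring one on the centres. Of 48 snRNA genes, which include spliceosomal and spliced leader RNAs, 24 (50%) had a summit nearby. The 4 near a recurring peak (8.33%, against 28.6% on the centres) included sls-2.14, sls-2.15 and sup-6. Transfer RNA genes had 90 of 127 (70.9%), with 5 near a recurring peak (3.94%), against 14 of 72 (19.4%) on the centres. MicroRNA genes had 47 of 75 (62.7%), against 58.6% on the centres. Near a recurring peak were mir-48, mir-241 and mir-4936 (4%, close to 3.45% on the centres and 3.45% of all nuclear ones). The mir-4936 peak ranked 19546 in replicate 1, where overlaps are not read as reproduced peaks. Ribosomal protein genes had 12 of 16 (75%), against 85% on the centres and 85.9% of all nuclear ones. Of those on the arms, rpl-3 was near a recurring peak (6.25%, against 5% on the centres and 15.4% of all). Of piRNA genes, 76 of 201 (37.8%) had a summit nearby and 3 (1.49%) a recurring one, close to the 1.52% of all arm genes. Several of these genes share 1 peak, so they are not independent.

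**Figure D4:**
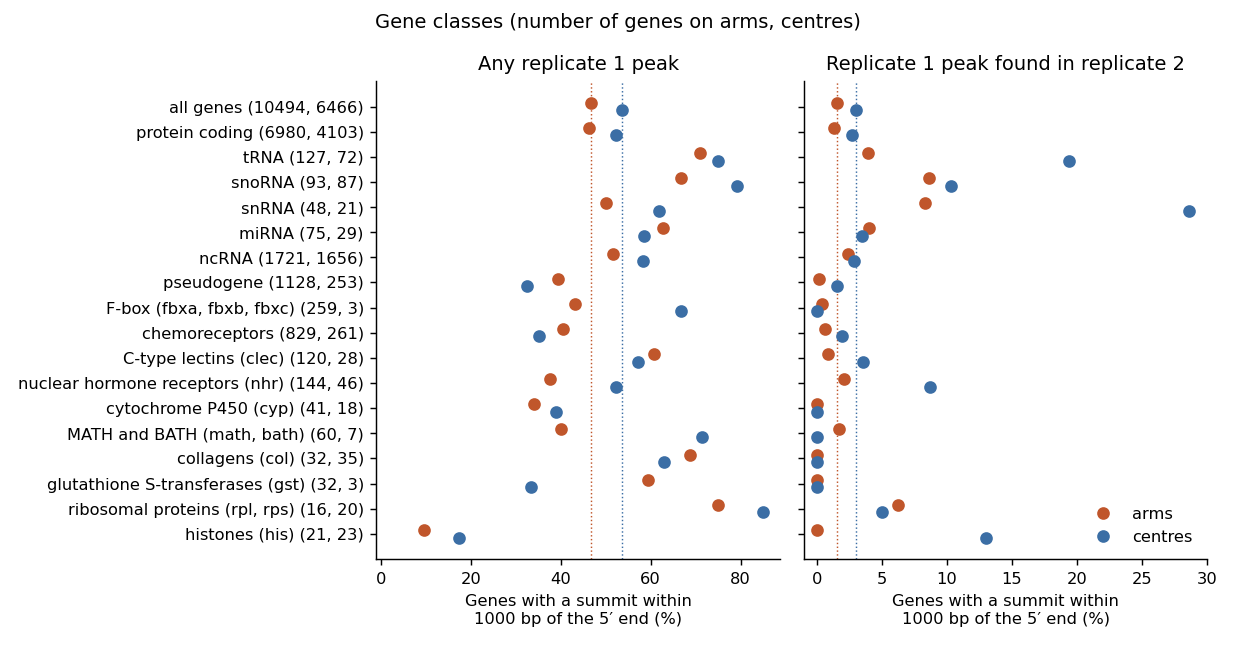
Share of genes (x axes, percent) with a replicate 1 summit within 1000 bp of the 5′ end (left) or with such a summit of a peak found in replicate 2 (right), by gene class, for arms (orange) and centres (blue). Dotted lines mark all genes, at 46.8% and 53.6% on the left and 1.52% and 2.98% on the right, and the arm shares for snoRNA and snRNA genes on the right are 8.6% and 8.33%.

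The strongest peaks are given next, most of them by name. The set of 23 holds the 16 members that met the thresholded list, the 10 members with the highest replicate 1 score, and the 10 members that met the strongest replicate 2 peaks. The authors chose the thresholded list from these replicates, so its overlap with them describes the lists only. The strongest member lay in an intron of pot-3, which encodes a telomere-binding protein of the POT1 type, 383 bp downstream of its 5′ end and close to the right end of III. Its score was 62.5, rank 2 of the whole list, and it was pooled rank 48, yet no replicate 2 peak overlapped it. The next, 72 bp upstream of tasp-1, a homologue of the protease taspase, had scores of 61.5 in replicate 1, 33.5 in replicate 2 and 91.4 in the pooled list. The peak 265 bp upstream of rpl-3, a large-subunit ribosomal protein gene, had 44.2, 52.3 and 103. It met the highest replicate 2 score on these arms.

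Of the 10 strongest members, 10 were in the pooled list and 5 in replicate 2. Those missing from replicate 2 were the pot-3 peak, the peak 49 bp upstream of pqn-51, which encodes a glutamine- and asparagine-rich protein, and 3 intergenic peaks. The intergenic ones lay 999 bp upstream of dhs-8, a short-chain dehydrogenase gene, 1799 bp upstream of cey-1, which encodes a Y-box RNA-binding protein, and 1653 bp upstream of W06H8.6. Their replicate 1 scores were 34.1, 33 and 28.9. Recurring ones among the strongest also included a peak in an exon of dos-3, with scores of 30.5 and 18.1 in the replicates. A peak in an exon of W09D6.5, 126 bp from the spliced leader RNA gene sls-2.14, had 28.8 and 14.7.

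A trio of members on V lay along a cluster of let-7 family microRNA genes, which time the fates of larval cells. The first had its summit at 14365057, 548 bp from the 5′ end of mir-48, and scored 23.4 in replicate 1, 22.5 in replicate 2 and 45.2 in the pooled list. The second, at 14366734, lay 451 bp from mir-241 and scored 18.5, 23.2 and 45.9. The third, at 14368405, had no microRNA 5′ end within 1000 bp and scored 24.9, 16 and 41. All 3 were in the thresholded list, at ranks 122, 574 and 85 of replicate 1 and 142, 118 and 1235 of replicate 2. No other thresholded member shared a cluster in this way except a pair of overlapping members at enee-1 on II, with summits at 24663 and 24871, which met the same replicate 2 peak and so count as 1 site.

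The members that met the strongest replicate 2 peaks were often weak in replicate 1. The peak 191 bp upstream of cdc-48.1, which encodes an AAA ATPase of protein quality control, scored 13.6 in replicate 1 (rank 3201) and 45.2 in replicate 2 (rank 35). The peak 117 bp upstream of Y71H2AM.20, inside an intron of the cytochrome oxidase gene cox-6B, ranked 15842 in replicate 1 and 46 in replicate 2. Of the 10, 5 ranked within the first 1000 of replicate 1 and 3 past 10000, where overlaps are not read as reproduced peaks. By place, 8 of the 10 were promoters: besides those at tasp-1, rpl-3, cdc-48.1 and Y71H2AM.20, they lay at kel-3, the chemoreceptor gene srh-146, the hexosaminidase gene hex-3 and nduf-9, which encodes a subunit of respiratory complex I. The mir-241 peak and a peak in an intron of mix-1, which encodes a condensin subunit, 39 bp from the snoRNA gene M106.6, made up the rest. The remaining thresholded member, 89 bp upstream of Y39E4B.6, scored 23.8 in replicate 1 and was not in replicate 2. In all, 11 of the 16 thresholded members were found in replicate 2, and 9 of the 16 lay at promoters.

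**Figure D5:**
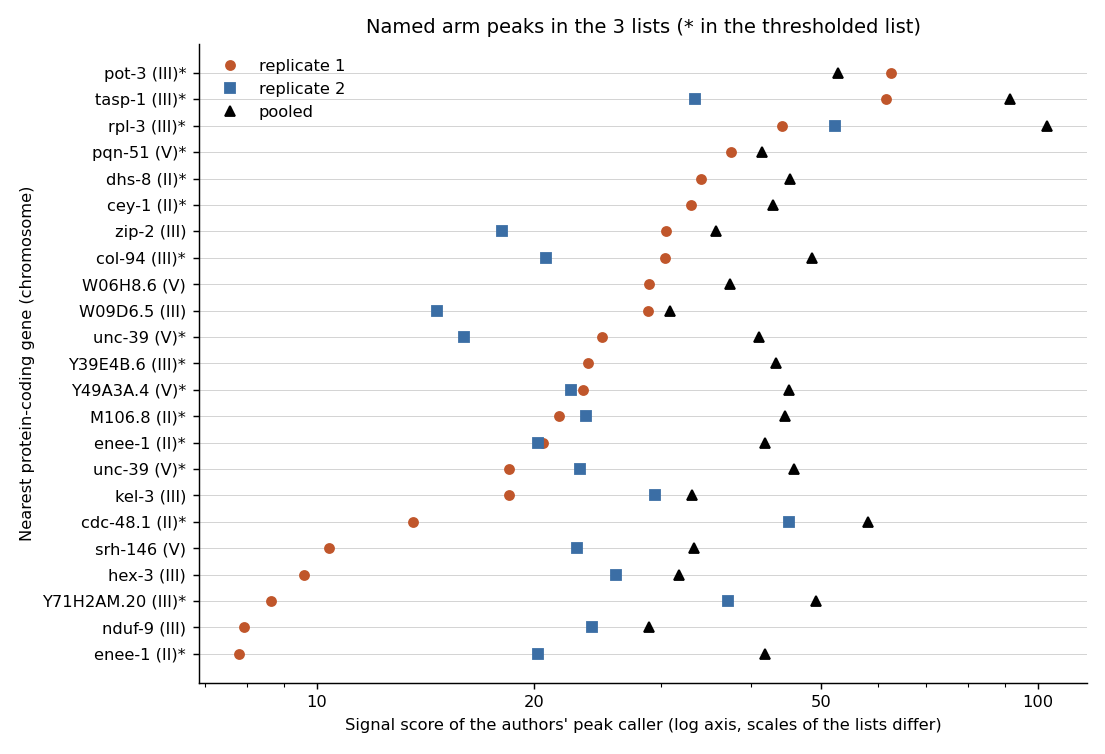
Signal score of the authors' peak caller (x axis, log scale) for the set of 23 members (y axis, nearest protein-coding gene and chromosome, ordered by replicate 1 score), in replicate 1 (circles), replicate 2 (squares) and the pooled list (triangles). Scales differ between lists, and 6 rows carry no square, among them pot-3 with the highest replicate 1 score of 62.5.

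The sequence under the members was then searched for the Myt1-family core. AAGTTT on either strand lay within 100 bp of the summit in 2098 members (22.5%), against 23.1% of the whole list and 32.3% of all arm windows of 201 bp. In windows centred 1000 bp to the right, 32% held it. Of the members in which summit and flank differed, 1390 held it at the summit alone and 2269 in the flank alone, a ratio of 0.613 (exact McNemar test, two-sided, adjusted p = 3.12e-47). Base composition moved with this result: the median GC content was 41.8% at the summits and 36.8% in the flanks. Among 1686 members whose windows were within 2 percentage points of GC, the shares were 25.6% and 27.6%, the ratio was 0.897 and the difference did not pass (exact McNemar p = 0.18). Replicate 2 arm peaks had AAGTTT at 32.7% of summits and 30% of flanks, a ratio of 1.15 (exact McNemar p = 0.342). Of the 10 members that met the strongest replicate 2 peaks, 5 held it, and of the 16 thresholded members 3.

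GAGTGTGTG, the run in capitals above, was counted after the sequences had been seen and has no test. On either strand it lay at 3 of 16 thresholded members, at 4 of 167 recurring members (2.4%), at 25 of all 9317 members (0.268%) and in 0.156% of arm windows of the same length. It lay at 5 of 547 replicate 2 arm peaks (0.914%). On the centres it lay at 20 of 5811 peaks (0.344%) and 0 of 169 recurring ones, and outside these arms, centres included, at 2 of 58 nuclear thresholded peaks (3.45%). GCGCAGGG is the core of a motif known from X-chromosomal sites that recruit the dosage compensation machinery. It lay at 10 members (0.107%), close to the 0.113% of the whole list, and in 0.0742% of arm windows.

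Repeated sequence was rare under the members. Windows of 201 bp in which at least 0.5 of the 36-mers occur elsewhere in the genome made up 8.61% of the arms and 5.14% of the centres. They held 46 members (0.494%) and 22 centre peaks (0.379%), against 0.413% of the whole list. The odds ratio was 1.31 (0.769 to 2.28, Fisher's exact test, adjusted p = 0.347). Near unc-119 on III, the mutated gene of the strain, 11 members lay within 20 kb. That was 238 per Mb, against 279.6 over the arms. Their best rank was 3036, and none was in replicate 2 or the pooled list. Of all members only 1.79% and 1.85% were, so with 11 peaks this is not read as a trait of the locus.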

How the data were processed

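ChIP-seq peak lists of 2 biological replicates of 1 group were analysed. The authors, per the labels' text records, derived 1 list from each replicate's alignments with a control, 1 pooled list from both, and a thresholded list from these by the irreproducible discovery rate. Each deposited peak carries a signal score and a −log10 q-value, both from the authors. Not given in the sources used here are the aligner, the peak caller and the thresholds.

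Members, gene lists and tests were chosen with earlier results of these data known. Peaks overlapped from 1 bp. Genes came from Ensembl 115 and sequence from the RefSeq copy of WBcel235. Positions are 1-based on ce11, and 5′ ends are annotated gene starts. Tests were exact binomial, Fisher's exact and exact McNemar tests, all two-sided, and a logistic likelihood-ratio chi-square test, with Benjamini-Hochberg adjustment over 9 tests. Intervals of shares are Clopper-Pearson, at 95%. A width term had no effect because replicate 1 peaks were all 320 bp wide. Peaks named in the text were the members in the thresholded list, the 10 with the highest replicate 1 score and the 10 that met the strongest replicate 2 peaks. The functions were tested on simulated data. Python 3.11.15, numpy 2.4.6, pandas 2.3.3, scipy 1.17.1 and statsmodels 0.14.6 were used. The ce10 lists were not used here, and 1 peak of the named set is not reported here by name.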

Additional observations from a re-analysis of the deposited data

How the results depend on the processing

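Of 88 alternative values over the 9 tests, 69 kept the direction and the side of 0.05 of their unadjusted exact or chi-square test. Both density ratios did so under every alternative run, from 0.74 to 0.863 over those computed on replicate 1 and from 0.601 to 0.695 in replicate 2. Some alternatives could not change a density ratio, yet they count among the 69. The unc-119 region held 0 replicate 2 peaks, and 1 peak per run was taken in replicate 1 alone. Replicate 2 density therefore stayed at 0.644 under both. Without replicate 1, the density is that of replicate 2. The alternative without repeated sequence dropped the few peaks there but kept that sequence in the lengths. Repeated windows made up 8.61% of the arms and 5.14% of the centres. That alternative could therefore hardly move a density ratio, and density over unrepeated sequence was not computed. The odds ratio of recurrence in replicate 2 was 0.672 among the strongest 5000 peaks and 0.763 on chromosome III alone, neither past the threshold, and 1.18 among the strongest 1000. At equal strength it was 0.762 on III alone. The pooled odds ratio passed with an overlap of at least 50% of both peaks (0.783) and with the outer 2 of 4 equal lengths as arms (0.757). With the latter the share among the strongest 1000 (0.742) and the repeated sequence share (1.61) passed too. The promoter odds ratio passed at 1000 bp (0.863) and with genes of every type (0.913), and turned at 200 bp (1.03), in the strongest 1000 (1.16), in peaks found in replicate 2 (1.28), with the outer 2 of 4 lengths (1) and on II alone (1.04). The AAGTTT ratio was 0.897 with GC-matched flanks. Without replicate 1, the same measures in replicate 2 gave 0.644 for density, 1.01 for promoters and 1.15 for AAGTTT. Strength, taken there on the strongest 67 peaks, gave 0.641 (Fisher's exact p = 0.385). Repeated sequence gave 0.388, on 1 arm and 2 centre peaks (Fisher's exact p = 0.584). The cause of these changes was not tested. Chromosomes alone, GC terms and 1 peak per run of overlapping peaks were added after seeing the data. The model without width was not run, since width did not vary. No paired analysis was possible because both samples belong to 1 group. Depth is unknown, so absence from replicate 2 is not read as absence of binding.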
